A study of Hordeum vulgare with 18 samples.

Results

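The comparison described here asks whether flag leaves of 2 barley (Hordeum vulgare) lines changed differently between 14 and 21 days post anthesis. It is the change in line 10_11 minus the change in the cultivar Karl, an interaction of line and day, and it rests on 12 of the 18 libraries of the series. These are 3 libraries, labelled A, B and C, of each line at 14 d and at 21 d, chosen by the line and age that the sample labels give. Each library was made from a pool of 10 or more flag leaves of glasshouse plants that had all been fertilized up to anthesis, and leaves were taken by the tagged anthesis date of their own shoot. The labels name no other treatment, and they do not say whether the pools of a group share pots or plants. The p-values therefore measure the spread between pools. RNA was measured by MARS-seq, which counts tags from the 3' ends of transcripts.

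The flag leaf is the last leaf a cereal shoot makes. During grain filling it senesces: its photosynthetic proteins are broken down and their nitrogen is moved to the grain, while many transcripts change in level. Karl is a cultivar with low grain protein, and 10_11 is known as a line near-isogenic to it that differs at a major grain protein locus on chromosome 6, the high-protein form of which has been associated with increased proteolysis and nitrogen remobilization in flag leaves. A difference of changes can come from different levels at 14 d, at 21 d or at both, so both are given below. The deposited identifiers are not paired with gene names and 0 of 13626 matched the reference table. Genes are therefore given by identifier, without function and without sequence, and the tissue label could not be checked against leaf markers.

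The 12 libraries held 1058777 to 3231258 counts. In 10_11 depth ran with day: A, B and C held 3231258, 1864058 and 2441878 counts at 14 d. At 21 d they held 1058777, 1159950 and 1384895. The Karl libraries of the 2 days overlapped in depth. The 6 libraries of 7 d, used here for the level before the interval, held 353982 to 947762 and carry another numbering style in the labels. For 67 genes the line difference, averaged over 7 and 21 d, was called in a fit without the 14 d libraries. On a scale from Karl (0) to 10_11 (1) at those genes, 10_11 14 d C had a median position of 0.067. The 3 Karl 14 d libraries lay at -0.061 to -0.00113 and 10_11 14 d A and B both at 0.982. The library labelled 10_11 14 d C thus goes against its label, and results are given with and without it.

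With all libraries, edgeR called no gene for the difference of changes. Of 9973 genes tested by edgeR's quasi-likelihood test, 0 had an adjusted p under 0.05 (0% called) and the lowest adjusted p was 0.0965. At an unadjusted p under 0.05 there were 1081 genes (10.8%), 604 with the higher change in 10_11 (6.06%) and 477 with the lower (4.78%). DESeq2 called 64 genes (0.642%), 34 with the higher (0.341%) and 30 with the lower change in 10_11 (0.301%). It gave no adjusted p for 5996 of the 9973 genes, which could therefore not be called. By limma voom with sample weights 108 genes were called (1.08%), 46 higher (0.461%) and 62 lower (0.622%). The median standard error of the difference was 0.459 on the log2 scale, with quartiles of 0.364 and 0.596. The count by edgeR was 2 without Karl 14 d B and 1 without Karl 21 d A.

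Without the library labelled 10_11 14 d C, 9 of 10382 genes were called (0.0867%). In 7 of them the change was higher in 10_11 (0.0674%) and in 2 it was lower (0.0193%), and the smallest difference among them was 1.95 on the log2 scale. Unadjusted p-values under 0.05 numbered 1284 (12.4%), 745 higher (7.18%) and 539 lower (5.19%). DESeq2 called 170 genes in this setting (1.64%), 112 higher (1.08%) and 58 lower (0.559%), and 6 of the 9 genes were among them. It gave no adjusted p for 5440 of the 10382 genes, which could therefore not be called. In all 9 genes the change in 10_11 was larger in size than that in Karl and was called on its own, beside 17.4% of all genes tested. The change in Karl was called in 1 of the 9, beside 1.09% of all.

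**Figure D1:**
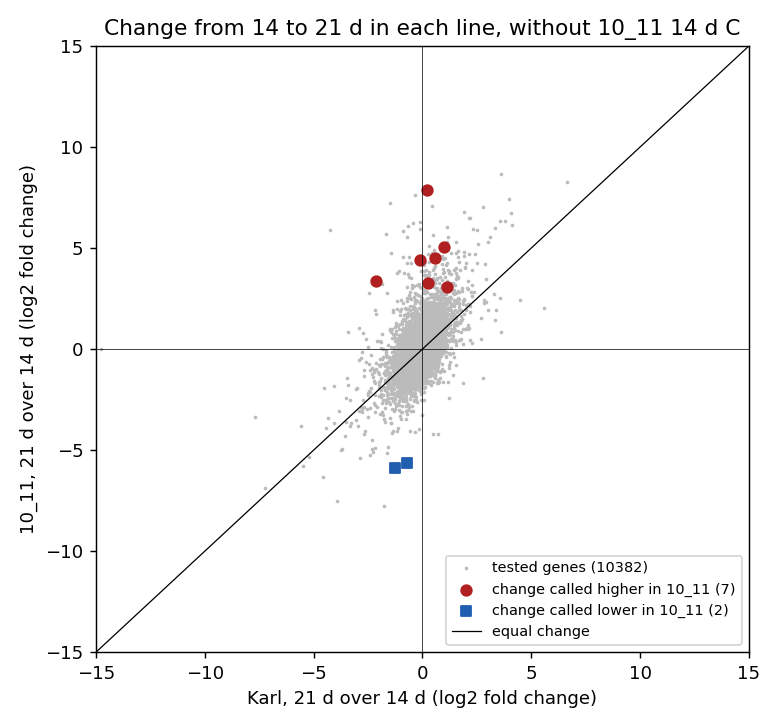
Each point is a gene tested without the library labelled 10_11 14 d C, with its log2 fold change from 14 to 21 d in Karl on the horizontal axis and in 10_11 on the vertical axis; the line marks equal change. The 7 red points and 2 blue squares are the called genes, which lie farther from 0 in 10_11 than in Karl.

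The 2 genes with a called lower change fell more before 14 d than after it in Karl, and more after it than before in 10_11. HORVU1Hr1G089180, on chromosome 1, had 129.5, 104 and 39.7 CPM in 10_11 14 d A, B and C, and 2.64, 4.04 and 0.602 CPM at 21 d. The values of 21 d rest on 3, 5 and 1 counts, so the size of the fall in 10_11 is imprecise. CPM is the count of a gene scaled to the size of its library, on 1 scale for all libraries. In such bulk samples fewer cells of a type and less RNA per cell cannot be told apart. In Karl it had 19.1, 35.2 and 19.4 CPM at 14 d and 6.88, 19.4 and 17.2 CPM at 21 d. The days did not overlap in 10_11 and overlapped in Karl. 10_11 stood above Karl at 14 d in every library and below it at 21 d in every library. At 7 d, which the contrast does not use, the means were 485 ± 156 CPM in 10_11 and 368 ± 23.4 CPM in Karl (SD, n = 3). With 10_11 14 d C left out, it fell in both lines by 14 d. The log2 fold change was -3.89 in Karl (edgeR adjusted p = 1.29e-05) and -2.04 in 10_11 (edgeR adjusted p = 0.021). From 14 to 21 d the change was -5.64 (SE 0.50) in 10_11 and -0.73 (SE 0.37) in Karl on the log2 scale, a difference of -4.91 (SE 0.65, edgeR adjusted p = 0.0053). It ranged from -4.35 without 10_11 21 d C to -5.53 without 10_11 21 d B. This call held without any 1 of the other 11 libraries, with edgeR adjusted p of 0.000663 to 0.0336, and was lost with the libraries of 14 and 21 d alone (0.0896). With all libraries the difference was -4.55 (edgeR adjusted p = 0.0965).

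HORVU5Hr1G109250, on chromosome 5, was the more abundant of the pair. It had 541, 614 and 115 CPM in 10_11 14 d A, B and C and 8.79, 14.6 and 6.02 CPM at 21 d. In Karl it had 74.9, 90.7 and 101 CPM at 14 d and 13.8, 72.2 and 23.8 CPM at 21 d. The days overlapped in neither line, but the highest Karl library of 21 d, B, lay just under the lowest of 14 d. At 7 d it had 2287 CPM in the median library of 10_11 and 1240 CPM in that of Karl, so that it fell by 14 d in Karl (log2 fold change -3.71, edgeR adjusted p = 0.00014) and had a change of -2.09 in 10_11 (edgeR adjusted p = 0.0525). From 14 to 21 d the change was -5.89 (SE 0.54) in 10_11 and -1.24 (SE 0.42) in Karl, a difference of -4.66 (SE 0.67, edgeR adjusted p = 0.00611). It was -3.67 without Karl 21 d B and -5.06 without 10_11 21 d B, and the call was lost without 10_11 14 d B (edgeR adjusted p = 0.0581) and with the libraries of 14 and 21 d alone (0.0896). With all libraries the difference was -4.21 (edgeR adjusted p = 0.138).

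Among the genes with a called higher change, HORVU1Hr1G065150 reached the highest level at 21 d. It had 19.6 and 25.4 CPM in 10_11 14 d A and B, 137 CPM in the library labelled C, and 609.9, 1155 and 465 CPM at 21 d. In Karl it had 140.0, 63.6 and 54.3 CPM at 14 d and 208, 149.8 and 156 CPM at 21 d. At 7 d it had 34.3, 22.8 and 10.3 CPM in 10_11 and 20.3, 29.5 and 18.6 CPM in Karl. 10_11 A and B at 14 d lay within the range of their 7 d libraries, and every Karl library at 14 d lay above those of 7 d. At 21 d every 10_11 library lay above every Karl library. Between 14 and 21 d, with 10_11 14 d C left out, the change was 5.05 (SE 0.51) in 10_11 and 0.99 (SE 0.36) in Karl, a difference of 4.07 (SE 0.58, edgeR adjusted p = 0.00611). It was 3.38 by limma voom and 3.52 without Karl 14 d A. The call was lost without 10_11 14 d A (edgeR adjusted p = 0.251) or B (0.0964) and with the libraries of 14 and 21 d alone (0.0896). With all libraries the difference was 2.63 (edgeR adjusted p = 0.298).

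HORVU6Hr1G084070, on chromosome 6, turned most on the library labelled 10_11 14 d C. It had 13.6 and 4.32 CPM in 10_11 14 d A and B, 406 CPM in the library labelled C, and 65.9, 193 and 34.9 CPM at 21 d. In Karl it had 1282, 444 and 552 CPM at 14 d and 111, 336 and 67.6 CPM at 21 d. Karl was highest at 14 d and 10_11 A and B at that day were nearer to their 7 d libraries, which held 0 to 3.80 CPM. The lines overlapped at 21 d. The difference was 5.48 (SE 1.01, edgeR adjusted p = 0.0409), from a change of 3.35 (SE 0.80) in 10_11 and of -2.13 (SE 0.60) in Karl, which was not called (edgeR adjusted p = 0.0939). It ranged from 4.50 without 10_11 21 d B to 6.57 without 10_11 14 d A, with 4.87 without Karl 14 d A and 6.43 without Karl 21 d B. The call was lost without Karl 14 d A or C, Karl 21 d A or C, or 10_11 14 d A or B (edgeR adjusted p of 0.0645 to 0.317), with a robust spread (0.103) and with the libraries of 14 and 21 d alone (0.123). With all libraries the difference was 1.59 (edgeR adjusted p = 0.734), and the change in 10_11 was -0.54 (edgeR adjusted p = 0.754), of the same sign as that in Karl (-2.14, edgeR adjusted p = 0.376).

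HORVU3Hr1G088270 was near its detection limit in both lines at 7 d. The 3 Karl libraries of that day held 0 counts and those of 10_11 held 0 to 2.02 CPM. At 14 d Karl had 30.2, 16.2 and 12.3 CPM, 10_11 A and B had 1.81 and 1.62 CPM, and the library labelled 10_11 14 d C had 24.0 CPM. At 21 d Karl had 21.3, 23.4 and 9.42 CPM and 10_11 had 17.6, 39.6 and 58.4 CPM, so that the days overlapped in Karl and the lines overlapped at 21 d. DESeq2 gave this gene no adjusted p with or without 10_11 14 d C, so DESeq2 could not call it. The difference by edgeR was 4.55 (SE 0.79, edgeR adjusted p = 0.0405), and it was 2.20 with all libraries (edgeR adjusted p = 0.445). The call was lost without Karl 14 d A, Karl 21 d A or C, or 10_11 14 d A or B (edgeR adjusted p of 0.0645 to 0.355), with thinned counts (0.0875) and with the libraries of 14 and 21 d alone (0.104).

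The remaining 2 named genes had the smallest edgeR p-values for a higher change with all libraries, where edgeR called neither. DESeq2 did call HORVU1Hr1G043920 (DESeq2 adjusted p = 0.00104) and HORVU1Hr1G018350 (0.000909) with all libraries. Limma voom with sample weights also called them (limma voom adjusted p = 0.0108 and 0.0127). HORVU1Hr1G043920 had 12.3, 15.1 and 25.2 CPM in 10_11 14 d A, B and C and 105, 156 and 132 CPM at 21 d. In Karl it had 59.5, 25.3 and 46.5 CPM at 14 d and 61.3, 67.9 and 26.0 CPM at 21 d. Karl libraries of the 2 days overlapped, and 10_11 lay below Karl at 14 d and above it at 21 d in every library. The difference was 2.65 with all libraries (SE 0.50, edgeR adjusted p = 0.138) and 3.01 without the library labelled 10_11 14 d C (SE 0.51, edgeR adjusted p = 0.0267). That call was lost without Karl 14 d A or C, Karl 21 d A, or 10_11 14 d A or B (edgeR adjusted p of 0.0524 to 0.317), and with the libraries of 14 and 21 d alone (0.109).

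HORVU1Hr1G018350 rose in both lines, and more in 10_11. It had 19.0, 14.6 and 24.4 CPM in 10_11 14 d A, B and C and 169, 134 and 134 CPM at 21 d. In Karl it had 27.0, 24.4 and 29.7 CPM at 14 d and 67.6, 45.6 and 65.9 CPM at 21 d. The days did not overlap in either line, and at 21 d 10_11 lay above Karl in every library. The rise in Karl was 1.14 (SE 0.23, edgeR adjusted p = 0.0255) and that in 10_11 3.09 (SE 0.28, edgeR adjusted p = 8.46e-06), a difference of 1.95 (SE 0.35, edgeR adjusted p = 0.0402). With all libraries it was 1.76 (edgeR adjusted p = 0.138). The call was lost without Karl 14 d A or C, any Karl 21 d library, or 10_11 14 d A or B (edgeR adjusted p of 0.0561 to 0.317), and with the libraries of 14 and 21 d alone (0.101).

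**Figure D2:**
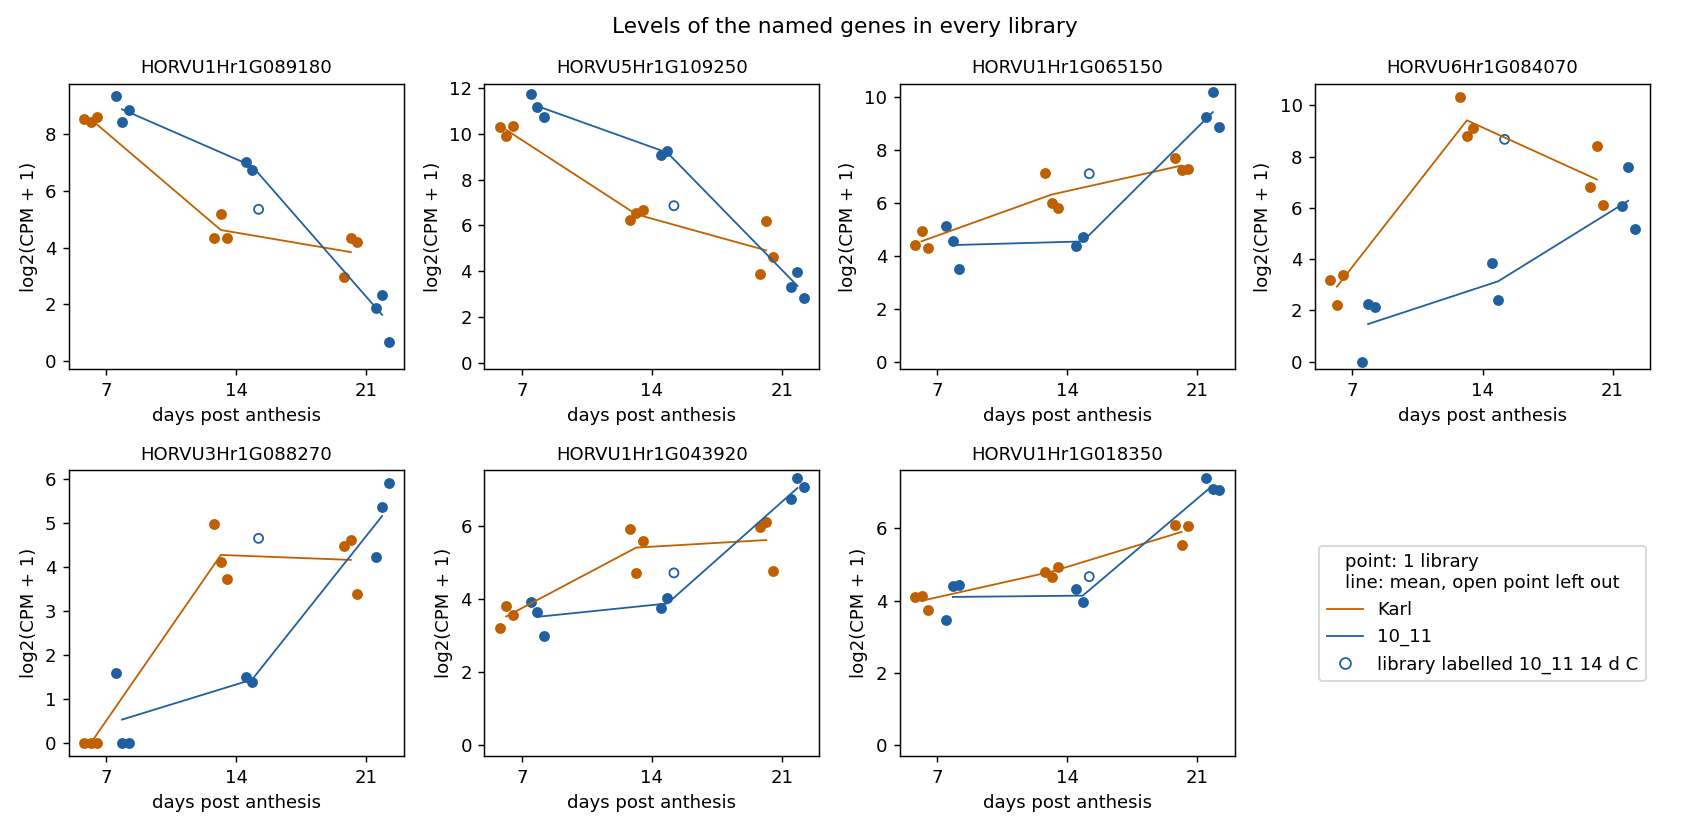
Levels of the 7 named genes in all 18 libraries, as log2(CPM + 1) against days post anthesis; filled points are single libraries, the open point is the library labelled 10_11 14 d C, and lines join group means without it. In each of the 7 panels the open point lies nearer to the mean of the Karl 14 d libraries than to that of 10_11 14 d A and B.

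The other 2 called genes, both on chromosome 7, had differences of 3.89 and 7.70. Both were scarce, with 20.2 to 35.6 and 10.6 to 27.1 CPM in 10_11 at 21 d. The latter had 0 counts in 10_11 14 d A and B, so that its fitted value depends on the fit and is no bound. Of the 9 genes 4 lay on chromosome 1, 0.298% of the 1341 tested there, and 1 each on chromosomes 3, 5 and 6. Of the 170 genes called by DESeq2 without the library labelled 10_11 14 d C, 21 lay on chromosome 6, 1.76% of 1195 tested, beside 1.64% over all genes. Across the 7 chromosomes this share ran from 1.18% on chromosome 4 to 2.03% on chromosome 3.

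The called genes shared a crossing of the lines. With 10_11 14 d C left out, 6 of the 7 genes with the higher change had lower fitted levels in 10_11 at 14 d and higher ones at 21 d. Both genes with the lower change had the reverse. The lines were called different at 14 d in 8 of the 9 genes, at 21 d in 4 and at 7 d in 0, beside 3%, 1.42% and 0.414% of all genes tested. The group mean farthest from the other 3 was 10_11 at 14 d in 7 genes and 10_11 at 21 d in 2. The same held for many of the 170 genes called by DESeq2: 149 crossed (87.6%), and the farthest group was 10_11 at 14 d in 94, 10_11 at 21 d in 73, Karl at 14 d in 2 and Karl at 21 d in 1. Over all 10382 genes tested 44.5% crossed, and the farthest group was 10_11 at 14 d in 32.8%, 10_11 at 21 d in 35.4%, Karl at 14 d in 19.1% and Karl at 21 d in 12.7%. With all libraries the order was another in the 1081 genes at an unadjusted p under 0.05. The farthest group was 10_11 at 21 d in 57.3% and 10_11 at 14 d in 34.3%. The lines were called different at 14 d in 1 of these genes and at 21 d in 63, beside 5 and 101 of all 9973 tested. The difference of changes is the line difference at 21 d minus that at 14 d, so these counts describe the chosen genes and test nothing.

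The level at 7 d placed the 14 d values. In the 112 genes called higher by DESeq2 the median log2 change from 7 to 14 d was 1.34 in Karl and 0.17 in 10_11, and from 14 to 21 d it was 0.11 in Karl and 1.95 in 10_11. In the 58 genes called lower the medians were -0.99 and -0.38 in the earlier interval and -0.30 and -1.60 in the later. These intervals share the 14 d libraries and are given side by side. The 14 d levels of both lines, with opposite signs, also entered the choice of the genes. That choice favours a larger earlier change in Karl than in 10_11, so these values describe the genes and test nothing. The rise or fall of 7 to 14 d was called by edgeR in 102 of the 170 genes in Karl and in 5 in 10_11, beside 10.7% and 0.645% of all genes tested. The same choice enters these counts, and 10_11 had fewer 14 d libraries than Karl in that fit. From 14 to 21 d none of all 10382 genes tested had called changes of opposite sign in the 2 lines. None of the 170, or of the 1284 at an unadjusted p under 0.05, could therefore have them. The change in Karl was called in only 8 of the 170 and 27 of the 1284.

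Genes were also chosen by the change in 1 line alone. Those chosen in 10_11 had larger median changes from 14 to 21 d there than in Karl, which the choice itself favours. In the fewer genes chosen in Karl the medians of the lines lay closer together. These lists describe the chosen genes and test nothing. With all libraries, 1982 genes (19.9%) changed in 10_11 from 14 to 21 d, of which 1072 rose (10.7%) and 910 fell (9.12%). In Karl 973 of the 1072 had a positive change with a median of 0.44, beside 1.2 in 10_11. Karl levels do not enter that contrast, but Karl libraries share the filter, scaling and spread of the fit. Of the 910 that fell, 847 had a negative change in Karl with a median of -0.45, beside -1.24. The value in the line that chose the genes is raised by that choice. The share of all genes with the same sign in both lines was taken only without 10_11 14 d C. It was 67.6% of 10382. In Karl 97 genes changed (0.973%), of which 44 rose (0.441%) and 53 fell (0.531%). Their medians were 1.46 and -1.75 in Karl and 1.75 and -1.67 in 10_11, whose levels do not enter the Karl contrast. All 97 had the same sign in 10_11, and 43 and 36 of them were also called there. From 7 to 14 d their medians were 0.756 in Karl and 0.775 in 10_11 for the rising genes, and -0.343 and -0.692 for the falling. For the genes chosen in 10_11 they were 0.463 and 0.244, and -0.566 and -0.319. The 14 d libraries enter both the choice and these medians. Leaving out 10_11 14 d C, the 984 genes that rose in 10_11 (9.48%) had medians of 1.44 and, in Karl, 0.44, and the 825 that fell (7.95%) had -1.35 and -0.44. The count for 10_11 was 1132 without 10_11 14 d A. That for Karl was 21, 42 and 24 without Karl 14 d A, B and C, 2 and 6 without Karl 21 d A and C, 48 and 57 without 10_11 14 d A and B, and 204 and 58 without 10_11 21 d B and C.

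Over all 9973 genes the change from 14 to 21 d was larger in size in 10_11 than in Karl for 67.4%. The median size was 0.461 in 10_11 and 0.288 in Karl on the log2 scale. Across genes, which are not replicates, the changes of the 2 lines correlated with r = 0.619 (Pearson) and rho = 0.563 (Spearman), given as a description. With 10_11 14 d C left out the share was 68.9%, the median sizes 0.504 and 0.292, and the coefficients 0.537 and 0.504. Sizes of single genes include the error of their estimates, which is larger for a group of 2 libraries. The part that the lower counts of the 10_11 21 d libraries have in these sizes was not tested.

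The 14 d libraries were then placed on the course from 7 to 21 d. The genes were 567 that rose and 552 that fell at least 2-fold in both lines in a fit of only the libraries of 7 and 21 d, so that 14 d libraries chose none of them. For each 14 d library the median share of its own line's 7 to 21 d change was taken. It was 67.8%, 59.4% and 70.5% in Karl A, B and C. In 10_11 it was 31.3% and 37.2% in A and B and 51.3% in the library labelled C. On these scales, 1 for each line, each 10_11 library lay below each Karl library. The means were 39.9% ± 10.3 and 65.9% ± 5.82 (SD, n = 3), a difference of -26 percentage points (exact permutation test, two-sided, p = 0.1, the smallest that 20 splits allow). Leaving out 10_11 14 d C, it was -31.7 (exact permutation p = 0.1, the smallest that 10 splits allow). On the 7 and 21 d means of Karl for all 6 libraries the difference was -19.9, and the library labelled 10_11 14 d C and Karl B were both at 59.4%. On those of 10_11 it was -17.1. Rising and falling genes, each on its own line's means, gave the same order, with 63.8% to 75.7% and 55.8% to 70.1% in Karl and 34.4% to 56.3% and 28.8% to 46.5% in 10_11. The later interval held a median log2 change of 1.28 in 10_11 and 0.55 in Karl for the rising genes, and of -1.26 and -0.64 for the falling ones.

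A pair of 14 d libraries stood apart from their groups at the genes of the difference itself. Libraries of 21 d were not placed in this way. Each 14 d library was left out in turn, the 200 genes with the smallest p for the difference were chosen without it, and it was placed between the remaining Karl (0) and 10_11 (1) libraries of 14 d, which include the one labelled 10_11 14 d C unless it was left out. Karl A and C lay at -0.0126 and 0.0708, and 10_11 A and B at 1.06 and 1.05. The library labelled 10_11 14 d C lay at 0.286, on the Karl side. Karl B lay at 0.679, on the 10_11 side, although at the 67 line-specific genes it lay at -0.00113. Karl B also had the lowest share of the age response among the Karl libraries. On the 7 and 21 d means of Karl the library labelled 10_11 14 d C reached 59.4%, the value of Karl B. In the 9 called genes, which it did not help to choose, that library was nearer to the Karl 14 d mean than to that of 10_11 A and B in 9, and in 133 of the 170 genes called by DESeq2 (78.2%), beside 53.6% of all genes tested.

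**Figure D3:**
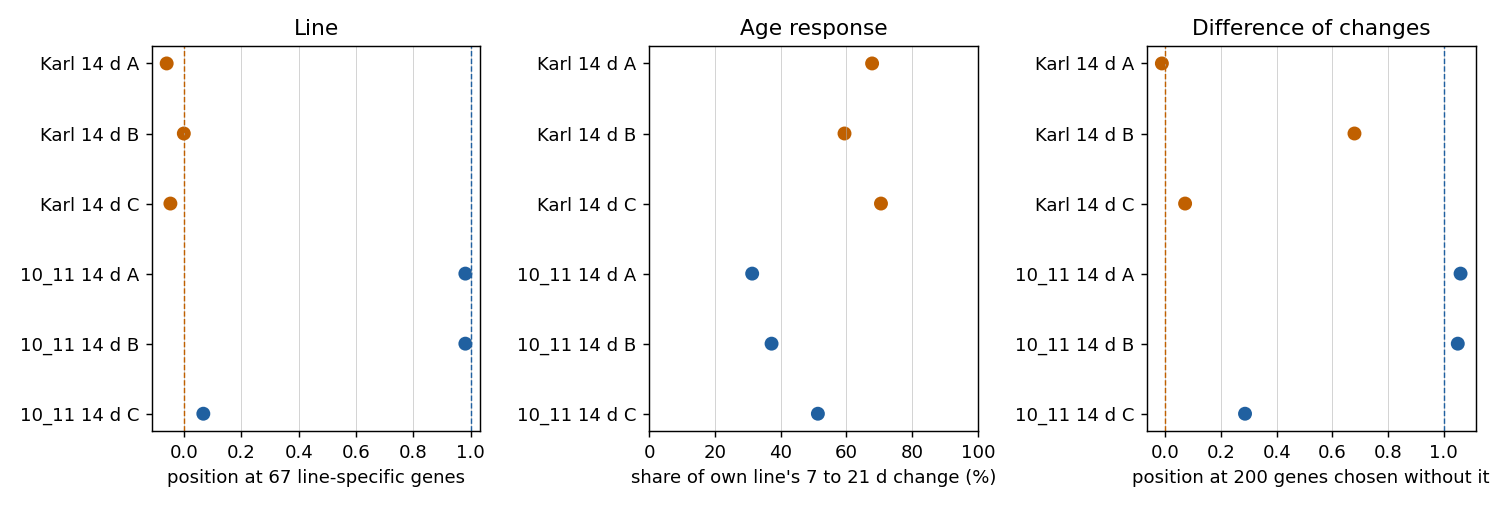
The 6 libraries of 14 d, Karl in orange and 10_11 in blue. The panels show, from left to right, the median position between the lines at 67 line-specific genes, the median share of the own line's change from 7 to 21 d, and the median position at 200 genes of the difference chosen without that library; dashed lines mark Karl at 0 and 10_11 at 1. The library labelled 10_11 14 d C lies at 0.067, 51.3% and 0.286, and Karl B at -0.00113, 59.4% and 0.679.

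The number of called genes moved with single libraries. Starting from the libraries without 10_11 14 d C, leaving out a further one gave 38 genes without Karl 14 d B, 28 of them higher in 10_11. It gave 44 without 10_11 21 d B, 41 without 10_11 21 d C and 21 without 10_11 21 d A. It gave 3 without Karl 14 d A, 3 without Karl 21 d A and 5 without Karl 21 d C. Where 10_11 14 d kept 1 library, which is then assumed to vary like the other groups, 2 genes were called without A and 1 without B. With the libraries of 14 and 21 d alone 0 genes were called. The lowest limma voom sample weight with all libraries was that of 10_11 21 d B (0.343), beside 0.622 for 10_11 14 d C and 0.698 for Karl 14 d B.

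**Figure D4:**
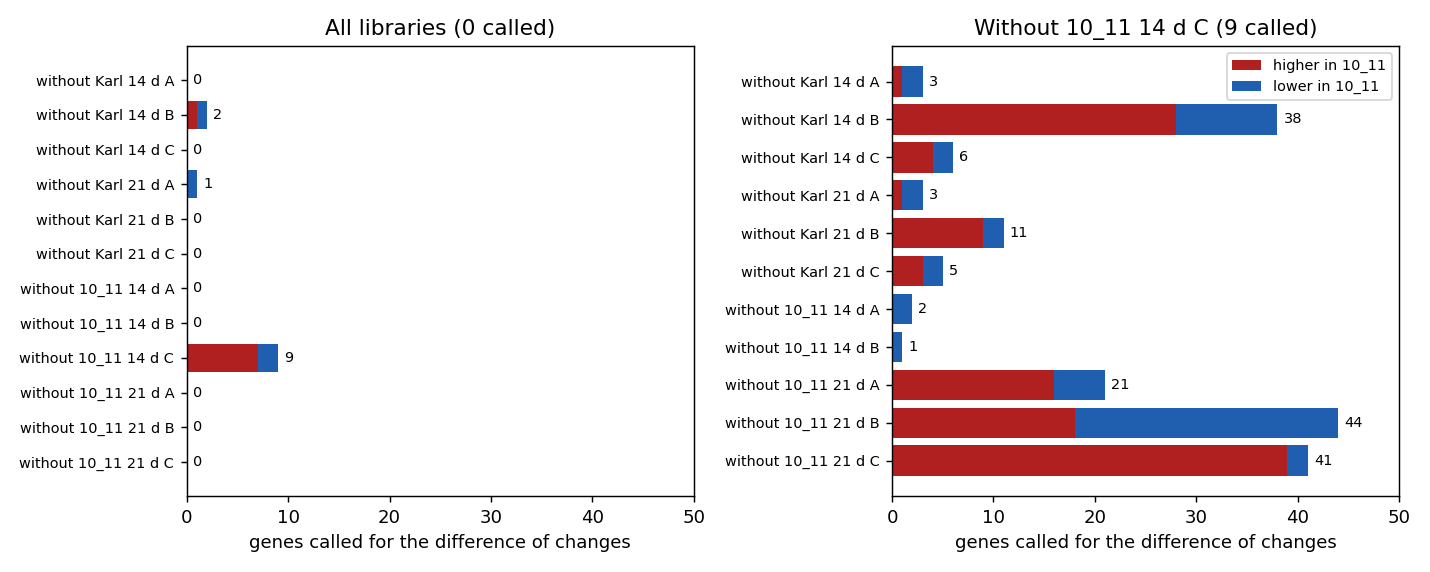
Number of genes called for the difference of changes (edgeR adjusted p under 0.05) when 1 library is left out, starting from all libraries (left) and from those without the library labelled 10_11 14 d C (right); red parts are genes with the higher change in 10_11 and blue parts those with the lower. From all libraries the count runs from 0 to 9, and from those without that library it runs from 1 to 44.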

How the data were processed

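The authors deposited 1 table of 13626 genes with whole-number raw counts per gene and library, per the file headers. The tools named per the submitters' processing notes are HTSeq, STAR 2.4.2a, cutadapt, bcl2fastq and DESeq2, with no role given. Genome build, annotation and use of molecular identifiers were not given in the sources used, so counts may include amplification copies, and near-identical gene copies are uncertain.

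Counts were analysed in R 4.3.3 with edgeR 4.0.16 (filterByExpr by group, TMM scaling, glmQLFit and glmQLFTest, two-sided, Benjamini-Hochberg adjustment over all tested genes) in 1 fit of all 18 libraries with 1 mean for each group (12 residual degrees of freedom). Genes with an adjusted p under 0.05 are called. Standard errors (SE) are the size of a log2 fold change over the square root of F. Log2 CPM used a prior count of 2. DESeq2 1.42.0, limma 3.58.1 and the other settings were alternatives, and the fits were checked on simulated data.

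Named genes were, in each direction, the 2 with the smallest edgeR p with all libraries, where edgeR called none. Without 10_11 14 d C they were the 2 called genes with the largest log2 difference and the 2 with the largest difference in CPM. Those chosen by p or log2 difference had at least 20 CPM in a group and days not overlapping in a line. No gene tested without 10_11 14 d C had own changes called in opposite directions. The comparison, lists and rules were chosen with earlier results of these data known. The line-specific positions, and shares on the other line's means, were added after the data were seen. Replicate letters were not taken as pairs: of 18 same-letter pairs of groups' libraries, 4 had a correlation of deviations over 0.1 (range -0.381 to 0.327).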

Additional observations from a re-analysis of the deposited data

Results flagged for a closer look

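The change from 14 to 21 d differed between the lines in 7 named genes by the test of the difference itself, without the library labelled 10_11 14 d C (10_11 minus Karl, log2 scale, edgeR adjusted p from 0.0053 to 0.0409). It was -4.91 for HORVU1Hr1G089180 and -4.66 for HORVU5Hr1G109250. It was 4.07 for HORVU1Hr1G065150, 5.48 for HORVU6Hr1G084070 and 4.55 for HORVU3Hr1G088270. It was 3.01 for HORVU1Hr1G043920 and 1.95 for HORVU1Hr1G018350. None of the 7 was called by edgeR with all libraries, where adjusted p ran from 0.0965 to 0.734. The same held when the 11 remaining libraries of 14 and 21 d were fitted alone (edgeR adjusted p of 0.0896 to 0.123). With all libraries DESeq2 called HORVU1Hr1G089180 (DESeq2 adjusted p = 1.21e-05), HORVU5Hr1G109250 (0.000327), HORVU1Hr1G018350 (0.000909) and HORVU1Hr1G043920 (0.00104). Limma voom called these except HORVU5Hr1G109250, and also HORVU3Hr1G088270 and HORVU1Hr1G065150 (limma voom adjusted p of 0.0108 to 0.0481). HORVU6Hr1G084070 was called by neither. The part of Karl 14 d B, which lay at 0.679 on the scale from Karl to 10_11 at genes chosen without it, was not tested beyond leaving it out. Groups of 3 libraries are too small for a test of single outlying values.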

How the results depend on the processing

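With all libraries the difference of changes gave 0 called genes with a robust spread, without a filter, with DESeq2 size factors, at a minimum fold of 2, with the libraries of 14 and 21 d alone, thinned counts (1058777 per library) and a replicate block, but 64 by DESeq2 and 108 by limma voom with sample weights. Leaving out 1 library gave 0 to 9. Without the library labelled 10_11 14 d C the 9 genes became 170 by DESeq2, 241 by limma voom, 0 with the libraries of 14 and 21 d alone and 4 with a replicate block, 1 to 44 without a further library, and 9 to 11 with the remaining settings. The change in Karl gave 97 genes, 60 without a filter, 254 by DESeq2, 41 with a replicate block and 2 to 204 without 1 library. That in 10_11 gave 1982 genes, 1645 with a replicate block and 1132 to 1979 without 1 library. The difference in the share of the age response stayed negative in all settings run, from -31.7 to -21.7 percentage points without 1 library and -19.9 and -17.1 with all libraries on the means of Karl or of 10_11. The difference of changes kept its sign for the 7 named genes in every setting that gave an adjusted p. DESeq2 gave none for HORVU3Hr1G088270. The change in 10_11 itself turned from 3.35 to -0.54 (log2) for HORVU6Hr1G084070 when 10_11 14 d C was included. Of the 12 libraries, 2 correlated best with a library of their own letter, so the replicate block is not a pairing the data show. Without 10_11 14 d C it ended the calls of HORVU6Hr1G084070 (edgeR adjusted p = 0.0509), HORVU1Hr1G018350 (0.0665), HORVU1Hr1G043920 (0.0697) and HORVU3Hr1G088270 (0.0906). The causes of these shifts were not tested.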
